A study of Sus scrofa with 6 samples.

Results

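The numbered zinc finger proteins are the large group of pig genes known mainly by a serial number, such as ZNF207 or ZNF638. They were taken as the transcript rows whose deposited protein description holds the words "zinc finger protein", a space and a number, and that had at least 100 reads summed over the 6 libraries. Of 379 rows with such a description, 312 met the read minimum and 67 did not, so the group made up 312 of the 20523 rows of the table. The members were thus chosen by their descriptions and selected on read totals, and how the members differed between the groups was no part of the rule. The 312 rows carried 265 names, and 35 of these names stood on more than 1 row. The protein matched was from the pig itself for 212 rows and from another species for 100, and 28 rows were described as low-quality predictions. Names are given here as ZNF and the number in the description, or by the symbol of a prefixed family, so a name is that of the best protein match and not of a verified pig gene.

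Most mammalian zinc finger proteins of this kind bind DNA through arrays of C2H2 fingers, short loops that each hold a zinc ion between 2 cysteines and 2 histidines. Many also carry a KRAB domain, which recruits the corepressor TRIM28 and with it the histone methyltransferase SETDB1, HP1 proteins and other silencing factors, above all at transposable elements. Others carry a SCAN domain, through which they pair with one another, and a smaller number act on RNA, ribosomes or ubiquitin in place of DNA. Numbered zinc finger genes are usually transcribed at low levels, and many are close copies of one another in tandem clusters.

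The series compared whole embryos of Large White pigs, aged 17.5 to 18 days post coitum, the age at which somites form, the mesodermal blocks that give rise to vertebrae. The 3 mutant embryos (QQ) were homozygous for the mutant alleles of the quantitative trait nucleotides (QTNs) at VRTN, a gene tied to the number of thoracic vertebrae, and the 3 wild-type embryos (WT) were of genotype qq. No other allele or treatment is given, litters are not named, and each library came from 1 embryo, with genotypes read from its extra-embryonic tissue. In units of 1000000, uniquely mapped reads numbered 13.5, 12.6 and 12.2 for QQ replicates 1 to 3 and 12.5, 12.8 and 13.4 for WT replicates 1 to 3. The VRTN row had 2, 0 and 1 reads in QQ embryos and 0 in each WT embryo, at or below the floor of 3 reads in every library. In a principal component analysis, QQ libraries scored 10.9 to 29.99 on the leading axis (57.7% of the variance), while WT replicate 3 scored -61.7, far from the -9.13 and 1.00 of the other WT libraries. Of 26 listed somite, neural, heart, blood and trophoblast genes, 18 had a row. Only the blood genes HBB and ALAS2 were at 0 in any library, both in QQ replicate 2. Of the genes listed under trophoblast, 2 had a row: CDX2, at 20.9 to 33.8 RPKM, and HSD17B1, at 1.11 to 2.69 RPKM. Neither level was used to judge whether the libraries held extra-embryonic tissue. Summed RPKM (reads per kilobase of transcript per 1000000 reads) of 5 somite genes ran from 62.5 to 76.5 in QQ and from 58.5 to 66.8 in WT embryos. Summed RPKM of 4 blood genes ran from 55.8 to 714 in QQ and from 443 to 1472 in WT embryos. In whole embryos fewer cells of a type and less RNA per cell cannot be told apart.

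Most of the zinc finger rows that met the read minimum were weakly expressed. Mean RPKM over the 6 libraries was between 1 and 10 for 194 rows, between 10 and 50 for 103, at least 50 for 8 and under 1 for 7, and no member was at 0 reads in any library. The minimum of 100 reads had already taken out the sparsest rows, so the few low rows and the lack of zeros follow in part from the rule. The median member stood at 7.77 RPKM, against 9.90 RPKM over the 13957 rows tested. Over the 12983 tested rows with at least 100 reads the median was 11.3 RPKM. Together the members took 0.880%, 0.994% and 0.922% of the reads in QQ replicates 1 to 3 and 0.854%, 0.872% and 0.731% in WT replicates 1 to 3. WT replicate 3 gave the lowest share and QQ replicate 2 the highest. The transcripts were well covered, with a median of 89.7% to 90.6% of each member's length under reads in QQ libraries and 85.6% to 89.6% in WT libraries.

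**Figure D1:**
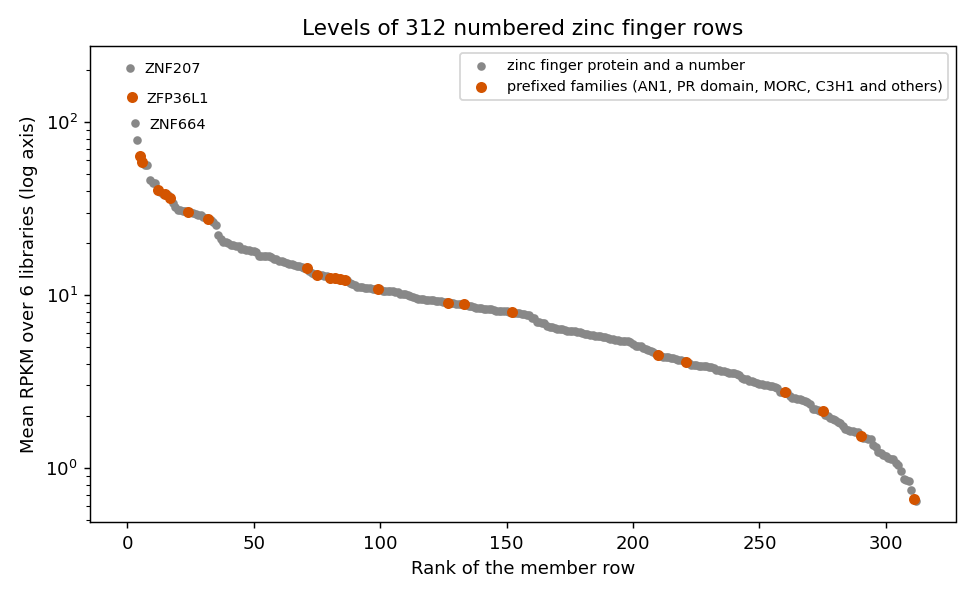
Mean RPKM over 6 libraries (log axis) of the 312 zinc finger rows, ranked from highest to lowest, with 1 point per row and prefixed families in orange. Most rows lay between 1 and 10 RPKM, and ZNF207, ZFP36L1 and ZNF664 stood highest.

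Annotation split the group by domain. The deposited KEGG match named a KRAB domain class for 220 rows, KRAB with SCAN for 17, SCAN for 13 and another class or none for 62. These KEGG classes are broad, since they place ZNF521, ZNF384 and ZNF143 with the KRAB proteins, so they are read as labels of similarity and not as proof of a domain. Rows of the KRAB class had a median of 6.40 RPKM, those with SCAN alone 8.03 RPKM, and those outside these classes 12.5 RPKM. Of the 312 rows, 288 were described by a number alone and 24 belonged to prefixed families. The 7 AN1-type rows, whose proteins bind ubiquitin or join in protein turnover, had a median of 27.6 RPKM, and the 8 rows of the PR domain family, relatives of histone methyltransferases, 8.44 RPKM.

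The 8 most abundant rows differed little between the genotypes beside the spread of their replicates. RPKM is scaled by library total alone, and with that scaling the median log2 fold change over all tested rows was 0.09. A slightly higher RPKM in QQ can therefore go with a fitted log2 fold change at or below 0. ZNF207, known as BuGZ and required for chromosome alignment through its partner BUB3, had 209.3, 246.2 and 206.6 RPKM in QQ embryos, against 192, 214 and 173 RPKM in WT embryos. The groups overlapped, with means of 221 ± 22.1 in QQ and 193 ± 20.7 in WT (SD, n = 3 each). ZFP36L1, which binds AU-rich elements and sends messenger RNAs to decay, had 190.1, 105 and 114 RPKM in QQ embryos, against 154, 149 and 126 RPKM in WT embryos. QQ replicate 1 was both the highest of all 6 and far above the other QQ embryos. Its relative ZFP36L2 had 85.5, 50.7 and 66.8 RPKM in QQ embryos, against 57.2, 60.4 and 32.1 RPKM in WT embryos, again overlapping.

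ZNF664 had 97.0, 125 and 111 RPKM in QQ embryos, against 93.7, 105 and 59.4 RPKM in WT embryos. Only WT replicate 3 lay well away from the rest. ZNF265, the splicing-associated protein also called ZRANB2, had means of 81.8 ± 12.6 RPKM in QQ and 75.8 ± 10.8 RPKM in WT embryos (SD, n = 3 each). ZFAND6, an AN1-type protein that binds ubiquitin, was the steadiest of the abundant members, at 59.1, 69.3 and 64.3 RPKM in QQ embryos and 61.5, 63.3 and 63.6 RPKM in WT embryos. ZNF358 had 51.7, 55.1 and 59.7 RPKM in QQ embryos, against 54.1, 49.0 and 68.0 RPKM in WT embryos. For these 8 abundant rows, which include a row of ZNF638 described further on, the log2 fold change of QQ over WT ran from -0.14 to 0.36, and none had an unadjusted p under 0.05 in edgeR.

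No zinc finger row passed the test between the genotypes. In edgeR's quasi-likelihood test with Benjamini-Hochberg adjustment over 13957 rows, 0 of 312 members had an adjusted p under 0.05 in either direction, and 0% of all tested rows did. The smallest adjusted p was 0.233, for members and for all rows alike. DESeq2 called 0 members as well, while it called 0.738% of all rows higher and 0.0573% lower in QQ. At an unadjusted p under 0.05, 35 members were higher in QQ (11.2%) and 16 lower (5.13%), beside 11.0% and 9.29% of all tested rows. In both directions together that was 51 members (16.3%), against 20.3% of all rows.

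The median zinc finger row had a small offset toward QQ, although 119 of the 312 rows were at or below 0. The log2 fold change was above 0 for 193 of 312 members (61.9%), against 49.7% of all tested rows. Its median was 0.08 over the members and -0.0027 over all rows, and 90% of the members lay between -0.40 and 0.72. Only ZNF81, at 1.46 ± 0.44 (log2, SE), and ZNF35, at 1.05 ± 0.38, exceeded a 2-fold difference, and without WT replicate 3 they were at 1.06 and 0.75. ZNF81 was barely expressed, with 1.23, 0.961 and 1.61 RPKM in QQ embryos and 0.444, 0.706 and 0.150 RPKM in WT embryos. These are descriptions without a test, since the members share libraries and are no replicates of a genotype.

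The offset rested largely on one embryo of each genotype. Without WT replicate 3 the median member was at 0.03 and 172 were above 0, and without QQ replicate 2 the median was 0.04 and 171 were above 0. On a log2 scale of CPM (counts per 1000000 reads) centred on the mean of the 6 libraries, the members' median was 0.01, 0.13 and 0.00 in QQ replicates 1 to 3 and 0.01, 0.03 and -0.14 in WT replicates 1 to 3. The pooled SD of these member medians within a group was 0.081, about the size of the offset itself. Over all tested rows the library medians stayed between 0.00 and 0.02. WT replicate 3 held the lowest RPKM of the 6 libraries for 177 members (56.7%), against 41.4% of all tested rows, and QQ replicate 2 held the highest for 152 members (48.7%), against 27.6%. The medians also depended on scaling. With library totals alone the median was 0.18 over the members and 0.09 over all rows. With quantile-normalized RPKM it was -0.02 over the members and -0.04 over all rows, with 150 members above 0 and 162 below. The members' median stood above that of all rows by 0.083 and 0.027 in these fits, against 0.085 in the main fit. Without WT replicate 3 that difference was 0.032, and without QQ replicate 2 it was 0.040.

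**Figure D2:**
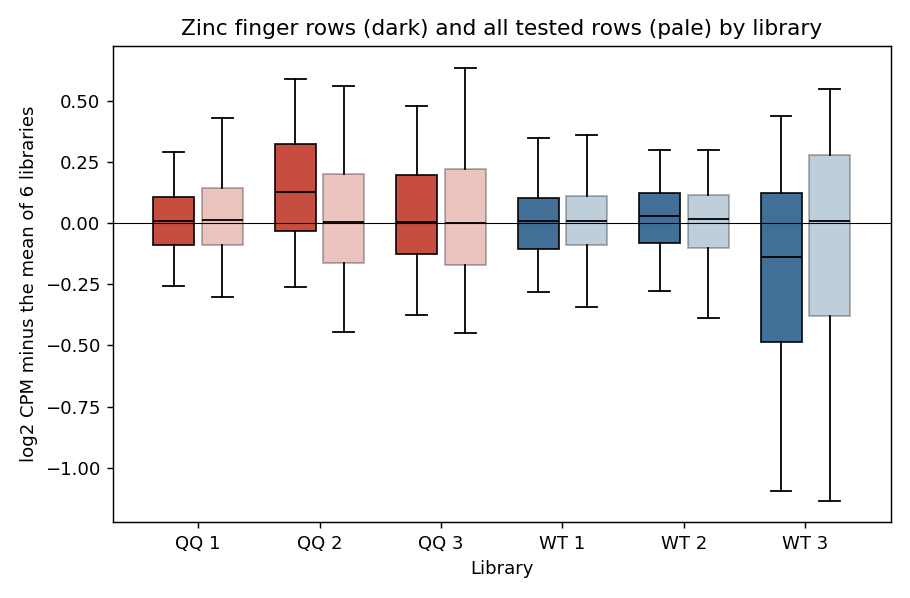
Log2 CPM minus the mean of 6 libraries, by library (QQ in red, WT in blue), for zinc finger rows (dark boxes) and all tested rows (pale boxes). Boxes show the median and quartiles and whiskers the 5th and 95th percentiles. The zinc finger box of WT 3 sits lowest, with a median of -0.14, and that of QQ 2 highest, at 0.13.

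**Figure D3:**
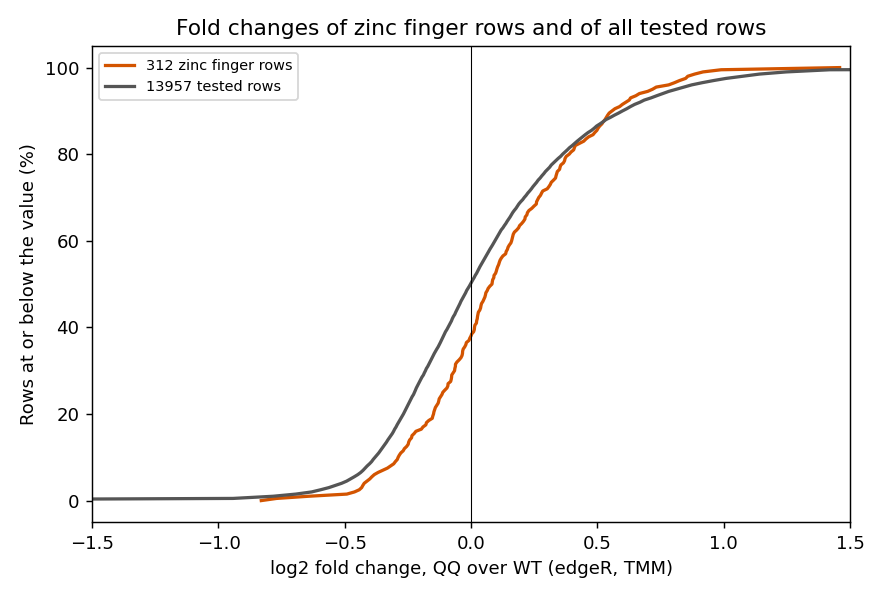
Cumulative share of rows (%) against the log2 fold change of QQ over WT, for 312 zinc finger rows (orange) and 13957 tested rows (grey). The orange curve runs to the right of the grey one in its middle, with medians of 0.08 and -0.0027, and is narrower in both tails. Values beyond the ends of the axis are not drawn.

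Members whose genotypes separated completely were mostly higher in QQ. In RPKM, all 3 QQ embryos lay above all 3 WT embryos for 66 members (21.2%) and below them for 12 (3.85%), where the background over tested rows was 18.8% and 9.07%. After TMM scaling the counts were 48 members above (15.4%) and 23 below (7.37%), against 15.2% and 14.5% of tested rows. The share above was a little over the background in RPKM and near it after TMM scaling, and the share below was under it on both scales. Domain class made little difference to the direction. Log2 fold changes were above 0 for 135 of 220 rows of the KRAB class (median 0.08), 10 of 17 with KRAB and SCAN (0.09), 9 of 13 with SCAN (0.08) and 39 of 62 others (0.08). Transcript length did not order the members the way it ordered the table: 94 of 156 longer members and 99 of 156 shorter ones were above 0, against 54.5% of all longer rows and 45.6% of all shorter rows.

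Among members of at least 1 RPKM with separate groups, log2 fold changes reached 0.94. To be named, a row needed a mean of at least 1 RPKM over the libraries, an unadjusted p under 0.05 and groups that did not overlap in RPKM. On the higher side 29 members met this (9.29%), against 9.12% of all tested rows, and on the lower side 9 did (2.88%), against 6.63%. ZNF638, a nuclear protein that binds nucleic acids and takes part in silencing through the HUSH complex, led the higher side with the second of its rows, at 32.6, 49.9 and 41.9 RPKM in QQ embryos and 20.6, 30.9 and 9.24 RPKM in WT embryos. Its log2 fold change was 0.94 ± 0.33 (SE) with an adjusted p of 0.233 in edgeR. ZNF24, a SCAN domain protein, had 36.5, 47.3 and 42.8 RPKM in QQ embryos and 24.8, 31.9 and 9.57 RPKM in WT embryos. In both, every QQ embryo was above every WT embryo, and WT replicate 3 was far below the other WT embryos.

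ZNF192, with KRAB and SCAN annotation, had a second row at 11.3, 13.2 and 11.4 RPKM in QQ embryos, against 7.35, 8.48 and 3.28 RPKM in WT embryos. ZNF614 had 3.73, 4.54 and 4.80 RPKM in QQ embryos, against 2.59, 2.74 and 1.33 RPKM in WT embryos. The pattern was the same again, with the QQ embryos close together and the WT embryos spread. The other 4 rows of this set were weak: ZNF33A row 2 averaged 6.32 ± 1.69 RPKM in QQ and 3.40 ± 1.24 RPKM in WT embryos, and ZNF280B averaged 3.63 ± 0.741 RPKM in QQ and 1.89 ± 0.897 RPKM in WT embryos (SD, n = 3 each). ZNF33B row 3 averaged 2.31 ± 0.684 RPKM in QQ and 1.17 ± 0.525 RPKM in WT embryos, and ZNF782 averaged 1.48 ± 0.310 RPKM in QQ and 0.761 ± 0.277 RPKM in WT embryos (SD, n = 3 each). WT replicate 3 was the lowest library in 8 of these 8 rows. Their log2 fold changes ran from 0.80 to 0.94 with all libraries and from 0.50 to 0.70 without WT replicate 3.

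On the lower side the 8 named rows had log2 fold changes from -0.81 to -0.27. ZNF134 had 41.6, 46.9 and 36.3 RPKM in QQ embryos and 47.0, 53.2 and 52.9 RPKM in WT embryos, so the lowest WT embryo was just above the highest QQ embryo. ZNF511 had 28.4, 25.8 and 27.0 RPKM in QQ embryos and 31.9, 32.7 and 38.8 RPKM in WT embryos, with a log2 fold change of -0.45 ± 0.15 (SE). ZNF575 had the largest difference of the set, at 0.957, 0.798 and 0.998 RPKM in QQ embryos and 1.61, 1.40 and 1.55 RPKM in WT embryos. It had few reads, with a log2 fold change of -0.81 ± 0.27 (SE).

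The remaining 5 rows reached -0.54. ZNF526 had 3.73, 3.82 and 4.09 RPKM in QQ embryos and 4.65, 4.78 and 4.94 RPKM in WT embryos, while ZNF576 averaged 13.0 ± 1.42 RPKM in QQ and 16.4 ± 1.43 RPKM in WT embryos (SD, n = 3 each). ZNF512, a protein of pericentromeric chromatin, had 13.9, 15.2 and 13.5 RPKM in QQ embryos and 17.1, 15.4 and 19.0 RPKM in WT embryos. ZNF784 row 1 averaged 1.99 ± 0.223 RPKM in QQ and 2.71 ± 0.348 RPKM in WT embryos, and ZNF330 row 1, whose human protein is nucleolar, averaged 26.5 ± 1.43 RPKM in QQ and 29.9 ± 0.210 RPKM in WT embryos (SD, n = 3 each). The second row of ZNF330 went the other way, with 3.59, 3.79 and 3.03 RPKM in QQ embryos and 3.02, 2.49 and 1.96 RPKM in WT embryos, a log2 fold change of 0.39 ± 0.23 (SE). WT replicate 3 was the highest library in 3 of these 8 rows and the lowest in none. Without it the log2 fold changes ran from -0.78 to -0.25, against -0.81 to -0.27 with all libraries.

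**Figure D4:**
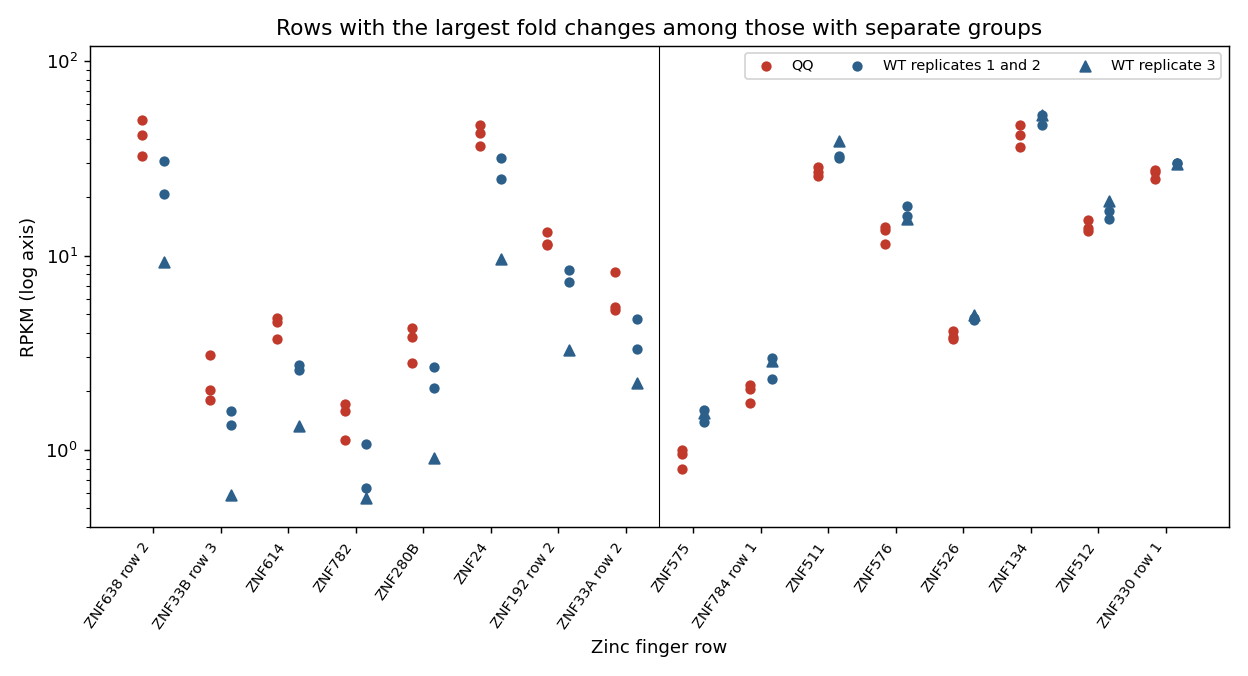
RPKM (log axis) of the 16 zinc finger rows with the largest fold changes among those with a mean of at least 1 RPKM, an unadjusted p under 0.05 and separate groups, in each QQ library (red) and WT library (blue, with a triangle for WT replicate 3). Left of the line are the 8 rows higher in QQ, where WT replicate 3 is the lowest point each time, and right of it the 8 rows lower in QQ, where it is not.

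The member furthest below 0 did not have separate groups. ZNF672 had 10.7, 7.20 and 5.82 RPKM in QQ embryos and 13.3, 10.5 and 15.9 RPKM in WT embryos, a log2 fold change of -0.83 ± 0.26 (SE). QQ replicate 1 and WT replicate 2 stood side by side, and of the fits run only DESeq2 without QQ replicate 1 or without WT replicate 2 called it. The role groups that follow were completed with the values known, so their counts are descriptions only.

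Members that act on RNA or ribosomes, with ZNF207 and both rows of ZNF638 counted among them, showed no common direction. Of 16 such rows, 10 were above 0, at a median of 0.03 on the log2 scale, and 2 in each direction had an unadjusted p under 0.05 (12.5% each way, against 11.0% of all rows higher and 9.29% lower). The 2 higher rows were ZNF638 row 2 and ZNF318. ZNF318 averaged 12.6 ± 2.18 RPKM in QQ and 9.14 ± 1.70 RPKM in WT embryos (SD, n = 3 each), with overlap. ZNF326, a partner of RNA polymerase II in splicing control, averaged 30.6 ± 3.10 RPKM in QQ and 27.5 ± 4.16 RPKM in WT embryos (SD, n = 3 each). ZNF598, the ubiquitin ligase that marks collided ribosomes, averaged 19.3 ± 1.15 RPKM in QQ and 19.7 ± 1.39 RPKM in WT embryos (SD, n = 3 each). Of the factors of the large ribosomal subunit, ZNF593 averaged 11.1 ± 1.87 RPKM in QQ and 11.1 ± 0.666 RPKM in WT embryos, and ZNF622 averaged 10.3 ± 4.13 RPKM in QQ and 11.6 ± 3.47 RPKM in WT embryos (SD, n = 3 each). ZNF346, which binds double-stranded RNA, had 9.56, 10.3 and 7.85 RPKM in QQ embryos and 11.8, 10.1 and 13.1 RPKM in WT embryos, a log2 fold change of -0.43 ± 0.17 (SE) with overlapping values. ZFP106, an RNA-binding protein needed for motor neuron upkeep in mice, had 38.7, 47.4 and 46.5 RPKM in QQ embryos and 34.2, 39.3 and 20.6 RPKM in WT embryos, and its log2 fold change of 0.41 was 0.19 without WT replicate 3.

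Members tied to chromatin, with ZNF638 counted in the group above instead, divided by protein. Of 12 rows, 7 were above 0, at a median of 0.13 on the log2 scale, and 4 higher and 1 lower in QQ had an unadjusted p under 0.05 (33.3% and 8.33%, against 11.0% and 9.29% of all rows). MORC3, an ATPase of silenced chromatin and nuclear bodies, had 14.5, 20.5 and 18.3 RPKM in QQ embryos and 11.7, 13.8 and 6.98 RPKM in WT embryos. Its relative MORC2, an effector of the HUSH complex, had 28.4, 31.6 and 30.4 RPKM in QQ embryos and 32.0, 27.5 and 31.8 RPKM in WT embryos, with full overlap. The log2 fold changes were 0.63 ± 0.22 for MORC3 and -0.11 ± 0.11 for MORC2 (SE). ZNF518A averaged 11.5 ± 2.11 RPKM in QQ and 6.52 ± 2.39 RPKM in WT embryos, and ZNF518B, a partner of the histone methyltransferase G9a, 21.5 ± 2.99 and 14.4 ± 4.59 RPKM (SD, n = 3 each, QQ and WT). ZNF516, which binds the corepressor CtBP, averaged 22.2 ± 1.67 RPKM in QQ and 14.5 ± 4.70 RPKM in WT embryos, while ZNF644, another partner of G9a, averaged 10.6 ± 1.60 RPKM in QQ and 11.0 ± 0.405 RPKM in WT embryos (SD, n = 3 each). In MORC3, ZNF518A, ZNF518B and ZNF516 the lowest of the 6 values was that of WT replicate 3, and without it the log2 fold changes were 0.41, 0.47, 0.26 and 0.30, against 0.63, 0.73, 0.49 and 0.53 with all libraries. ZNF532 averaged 47.6 ± 4.54 RPKM in QQ and 41.8 ± 7.35 RPKM in WT embryos (SD, n = 3 each).

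Members known from development or promoter binding showed the same division. Of 16 rows, 9 were above 0, at a median of 0.02 on the log2 scale, and 3 higher and 1 lower in QQ had an unadjusted p under 0.05 (18.75% and 6.25%, against 11.0% and 9.29% of all rows). ZNF292 had 14.7, 15.6 and 15.7 RPKM in QQ embryos and 10.9, 11.0 and 5.64 RPKM in WT embryos, a log2 fold change of 0.66 ± 0.21 (SE) that was 0.41 without WT replicate 3. The QQ embryos lay close together and above every WT embryo, and of the fits run only DESeq2 without WT replicate 2 or without WT replicate 3 called it. ZNF281, which restrains pluripotency genes in mouse stem cells, had 21.7, 26.8 and 30.3 RPKM in QQ embryos and 18.3, 20.4 and 8.88 RPKM in WT embryos. ZNF148, known as ZBP-89 and a binder of GC-rich promoters, had 13.6, 18.5 and 15.8 RPKM in QQ embryos and 10.9, 12.4 and 5.86 RPKM in WT embryos. In both, the groups did not overlap and WT replicate 3 was lowest, and leaving it out took the log2 fold changes to 0.36 for ZNF281 and 0.38 for ZNF148, against 0.64 and 0.63 with all libraries.

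ZNF76 row 1, a relative of ZNF143, was the member on the lower side, with 5.81, 5.43 and 4.90 RPKM in QQ embryos and 7.24, 5.77 and 7.84 RPKM in WT embryos, a log2 fold change of -0.47 ± 0.18 (SE). Its groups overlapped by 1 embryo each. ZNF131 averaged 16.2 ± 3.75 RPKM in QQ and 10.1 ± 4.27 RPKM in WT embryos (SD, n = 3 each), with overlap. ZNF503 averaged 20.1 ± 0.312 RPKM in QQ and 18.4 ± 2.46 RPKM in WT embryos, and its relative ZNF703, a repressor of the same family, 13.6 ± 1.22 and 12.5 ± 1.41 RPKM (SD, n = 3 each, QQ and WT). ZFP42, known as REX1 and a marker of pluripotency in mice, averaged 39.0 ± 5.08 RPKM in QQ and 37.9 ± 5.21 RPKM in WT embryos (SD, n = 3 each). Its fitted log2 fold change was -0.055 ± 0.15 (SE). ZNF143, which binds promoters of small nuclear RNA genes and chromatin loop anchors, averaged 16.2 ± 1.03 RPKM in QQ and 15.01 ± 1.57 RPKM in WT embryos (SD, n = 3 each). ZNF384 had 32.0, 33.0 and 33.2 RPKM in QQ embryos and 35.6, 33.2 and 38.3 RPKM in WT embryos, a log2 fold change of -0.22 ± 0.11 (SE). ZNF277 averaged 49.4 ± 5.05 RPKM in QQ and 39.7 ± 5.35 RPKM in WT embryos (SD, n = 3 each). Of 40 numbers listed for a role outside plain DNA binding or in development, 32 had a member, and 21 of their 37 rows were above 0, at a median of 0.02 on the log2 scale, and 5 higher and 4 lower in QQ had an unadjusted p under 0.05 (13.5% and 10.8%, beside 11.0% and 9.29% of all rows).

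The prefixed families leaned the same way as the rest, with 16 of 24 rows above 0 (66.7%, against 49.7% of all tested rows) and a median of 0.17 on the log2 scale. An unadjusted p under 0.05 was found for 2 rows (8.33%, against 20.3% of all rows). Groups were separate in RPKM with QQ higher for 5 rows (20.8%) and with QQ lower for 1 (4.17%), against 18.8% and 9.07% of all rows. In the PR domain family 6 of 8 rows were above 0, with a median of 0.24. PRDM1, which specifies germ cell precursors in mice, averaged 3.09 ± 0.765 RPKM in QQ and 2.40 ± 0.337 RPKM in WT embryos (SD, n = 3 each). PRDM4 was on the other side, with 11.8 ± 0.566 RPKM in QQ and 13.0 ± 0.590 RPKM in WT embryos (SD, n = 3 each), without overlap in RPKM. Of the 7 AN1-type rows 4 were above 0, with a median of 0.10. ZFAND5, which stimulates the proteasome, averaged 9.70 ± 0.193 RPKM in QQ and 8.02 ± 0.769 RPKM in WT embryos, and the first row of ZFAND3 averaged 44.4 ± 1.48 RPKM in QQ and 36.1 ± 1.89 RPKM in WT embryos (SD, n = 3 each). Both were without overlap in RPKM, with log2 fold changes of 0.18 ± 0.13 and 0.21 ± 0.14 (SE). CXXC5, an inhibitor of Wnt signalling, averaged 39.4 ± 3.13 RPKM in QQ and 37.4 ± 1.87 RPKM in WT embryos (SD, n = 3 each). Its fitted log2 fold change was -0.019 ± 0.11 (SE).

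Rows of the same name did not always share a direction. Of the 35 names with several rows, 21 had log2 fold changes of 1 sign over all their rows and 14 had both signs. Some of these splits were small beside their standard errors, as for ZNF142, at -0.09 ± 0.17 and 0.10 ± 0.21 (log2, SE). Among the wider ones, ZNF850 had 6 rows between -0.47 and 0.50, and ZNF709 had 7 rows between -0.25 and 0.41. The first row of ZNF192 was at -0.13 ± 0.14 and the second at 0.83 ± 0.28 (log2, SE), and those of ZNF510 were at -0.38 and 0.44. Reads were counted where they mapped uniquely, and near-identical copies can split or lose reads, so rows of this family are uncertain as measures of single genes.

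The 2 rows of ZNF638 compared differently between the genotypes. Its first row, ENSSSCT00000027413 of 2637 bp, had 56.2, 64.9 and 56.2 RPKM in QQ embryos and 54.3, 58.7 and 48.7 RPKM in WT embryos, while its second, ENSSSCT00000026994 of 2663 bp, was the row that led the higher side. Reads of the second row per read of the first were 0.586, 0.776 and 0.752 in QQ embryos and 0.384, 0.530 and 0.192 in WT embryos. The ratio within a library does not depend on scaling, and it was higher in every QQ embryo than in any WT embryo. PRDM2, a PR domain protein, had the same form, with 0.345, 0.304 and 0.319 reads of its second row per read of its first in QQ embryos and 0.254, 0.178 and 0.121 in WT embryos. In levels, the second row of PRDM2 had 14.4, 15.5 and 17.8 RPKM in QQ embryos and 13.7, 7.73 and 5.90 RPKM in WT embryos, and the first averaged 12.7 ± 1.83 RPKM in QQ and 12.5 ± 1.33 RPKM in WT embryos (SD, n = 3 each).

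Such ratios were computed for the 10 names that had exactly 2 rows of the same description, a choice made with the data in view. Only ZNF638 and PRDM2 separated the genotypes, each with an exact two-sided permutation p of 0.1, the smallest that 3 against 3 allows, and 0.333 after adjustment over the 10 ratios. ZNF521, a partner of the transcription factor EBF1, was among those that did not, with 0.243, 0.281 and 0.271 in QQ embryos and 0.318, 0.278 and 0.515 in WT embryos. Its first row averaged 32.7 ± 1.17 RPKM in QQ and 27.3 ± 3.61 RPKM in WT embryos, and its second 27.5 ± 2.97 RPKM in QQ and 31.1 ± 6.06 RPKM in WT embryos (SD, n = 3 each). Whether the rows of a name are fragments of 1 gene, isoforms or separate copies is not given by the table.

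**Figure D5:**
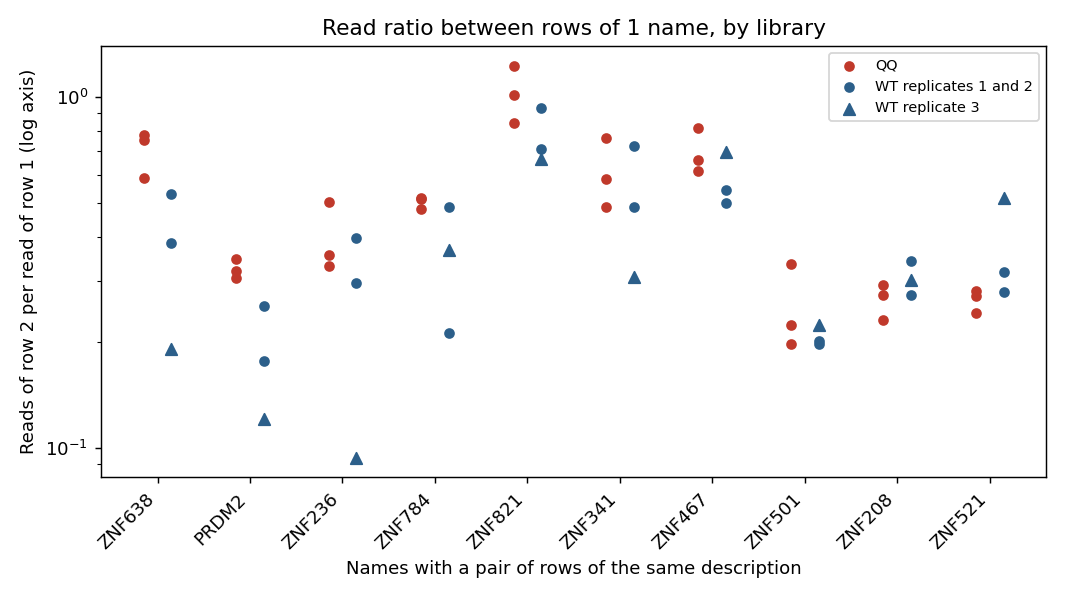
Reads of the second row per read of the first (log axis) for 10 names with a pair of rows of the same description, in each QQ library (red) and WT library (blue, with a triangle for WT replicate 3). Only ZNF638 and PRDM2, on the left, have all QQ points above all WT points.

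The partners of KRAB zinc finger proteins were measured beside them. Of 33 genes of TRIM28-type silencing, NuRD, HP1, DNA methylation and HUSH, 27 had a row and 25 were tested, of which MORC2 and MORC3 are members. TRIM28 itself is not analysed here. Among the other 23, 11 were above 0 and 12 below, and their median log2 fold change was -0.06. In edgeR 0 of them passed the adjusted threshold. At an unadjusted p under 0.05, 5 were higher in QQ and 3 lower (8 of 23, or 34.8%, against 20.3% of all tested rows). SETDB1, which writes the repressive H3K9 mark, averaged 13.8 ± 0.369 RPKM in QQ and 13.5 ± 1.02 RPKM in WT embryos (SD, n = 3 each). Its fitted log2 fold change was -0.061 ± 0.097 (SE). CHD4, the NuRD remodeller, averaged 191 ± 13.7 RPKM in QQ and 179 ± 15.6 RPKM in WT embryos (SD, n = 3 each), with a fitted value of 0.0047 ± 0.11 (log2, SE).

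The partners with such a p stood in different complexes, and none of them passed the adjusted threshold. CBX5, an HP1 protein, averaged 27.0 ± 1.94 RPKM in QQ and 15.9 ± 5.85 RPKM in WT embryos, and SMARCAD1, a remodeller that acts with TRIM28, averaged 40.6 ± 7.22 RPKM in QQ and 28.5 ± 4.90 RPKM in WT embryos (SD, n = 3 each). GATAD2B, a NuRD subunit, averaged 7.01 ± 0.994 RPKM in QQ and 4.28 ± 1.34 RPKM in WT embryos (SD, n = 3 each). In these 3 genes WT replicate 3 held the lowest of the 6 values. The rows matched to ATF7IP and ATRX were under 1 RPKM in every library and are weak measures of these genes. On the lower side, DAXX, a histone H3.3 chaperone, averaged 36.03 ± 0.857 RPKM in QQ and 44.2 ± 3.37 RPKM in WT embryos, with a log2 fold change of -0.39 ± 0.11 (SD with n = 3 each, SE for the fold change). MTA2 of NuRD averaged 133 ± 2.02 RPKM in QQ and 152 ± 6.63 RPKM in WT embryos (SD, n = 3 each).

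At the read minimum the rows were too sparse to compare. The 3 rows just inside it were ZNF471 with 103 reads, PRDM13 with 109 and a row of ZNF200 with 111, and the 3 just outside were rows of ZNF256 with 98, ZNF316 with 96 and ZNF2 with 90. ZNF471 had 20, 17 and 18 reads in QQ embryos and 21, 18 and 9 reads in WT embryos. ZNF256, just outside, had 26, 22 and 11 reads in QQ embryos and 15, 18 and 6 reads in WT embryos. All 312 members passed the expression filter of the test.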

How the data were processed

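Per the labels, TruSeq libraries were built from total RNA of 3 QQ and 3 WT pig embryos. Reads were mapped to Sscrofa 10.2, per the submitters' processing notes. For the aligner, counting program and strand use, nothing is given in the sources used here. Per the file headers, the deposited table holds for each transcript a whole-number count of uniquely mapped reads, the percent of the transcript covered, and RPKM. The deposited RPKM equals the count scaled by length and library total (relative gap at most 1.29e-07). Dashes were read as 0. Gene positions and sequences were not used here. Intervals were not computed, and the floor of 3 reads covers counting error only.

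Counts were tested with edgeR 4.0.16 (TMM, minimum count 10, minimum total 15, quasi-likelihood, Benjamini-Hochberg threshold 0.05, R 4.3.3), on all 13957 rows passing the filter. The test was checked on simulated counts. Standard errors are the log2 fold change divided by the square root of F. Labels name separate embryos but no litters, and p-values cover only the spread of these 6 embryos. Every pair of libraries differed by more than sampling noise. By chi-square of counts per degree of freedom, QQ replicate 1 was nearer to WT replicates 1 and 2 (8.32 and 8.03) than to QQ replicates 2 and 3 (19.5 and 19.3). The members, gene lists and role groups were chosen with earlier results of these data known. Named rows are the 8 of highest mean RPKM; the 8 of largest fold change each way with a mean of at least 1 RPKM, unadjusted p under 0.05 and separate groups; rows of 40 listed numbers, with values for the 10 highest; and the 3 on either side of the read minimum. Others were added after their values were seen. Alternatives were other filters, scalings and thresholds, DESeq2 1.42.0, limma 3.58.1 on log2 (RPKM + 0.5 or 1), removal of the length trend, a replicate block, other read minimums, 1 row per name and leaving out each library. Of the partner genes counted, 1 is not reported here by name.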

Additional observations from a re-analysis of the deposited data

How the results depend on the processing

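With library totals alone the median log2 fold change was 0.177 over the zinc finger rows and 0.0938 over all rows. On quantile-normalized RPKM it was -0.0157 and -0.0431, against 0.0825 and -0.0027 as reported. For the zinc finger rows it ranged from 0.0297 to 0.115 over edgeR fits leaving out a library. Over DESeq2 fits leaving one out, which were chosen after seeing the data, it ranged from 0.0355 to 0.118. With a minimum of 50 or 500 reads, or 1 row per name, it was 0.0858, 0.0563 and 0.0567. With all libraries, no alternative called a zinc finger row. DESeq2 without 1 library called 0 to 19 of the 312 members, and the 19 came without WT replicate 2 (18 higher, 1 lower). That fit called 848 rows in all, 694 higher and 154 lower in QQ. Calls over all rows thus also lay mostly on the higher side, and the 19 are not read as a zinc finger result. DESeq2 called 2 members without WT replicate 1, and 1 each without QQ replicate 1 (ZNF672) and without WT replicate 3 (ZNF292). Over all rows edgeR called 0 and DESeq2 111, and leaving out a library gave 0 to 3 in edgeR. In DESeq2 it gave 152, 4 and 0 without QQ replicates 1 to 3 and 51, 848 and 171 without WT replicates 1 to 3. Replicate numbers showed no clear pairing: deviations of same-numbered embryos correlated at -0.19, 0.21 and -0.06, and not every embryo correlated best with its own number. The deviations sum to 0 within a group, so these correlations cannot settle whether embryos were paired, by litter or otherwise. With the replicate number as a block, 0 rows were called. At unadjusted p under 0.05 there were then 42 of 312 members higher and 9 lower in QQ, against 35 and 16 without the block. Over all 13957 rows, in both directions together, 2291 had such a p with the block and 2837 without it. The count over all rows was not split by direction with the block, so the members' split has no background there. Of 896 values for 53 named members, 17 in 7 members changed sign, and the cause was not tested. Over fits leaving out a library, the log2 fold change ran from -0.51 to 0.029 for ZFP36L1 (above 0 without QQ replicate 2), from -0.095 to 0.104 for ZNF265 (below 0 without QQ replicate 2 or, at -0.067, WT replicate 3) and from -0.014 to 0.089 for ZNF638 row 1 (below 0 without QQ replicate 2 or, at -0.010, WT replicate 3). It ran from -0.253 to 0.033 for ZNF358 and from -0.026 to 0.168 for ZNF532 (both changed sign without WT replicate 3), and from -0.165 to 0.0023 for PRDM2 row 1 (above 0 without QQ replicate 1). With the length trend removed ZNF265 was at -0.029 and ZNF638 row 1 at -0.00034. With library totals alone, and in limma with pseudocounts of 0.5 and 1, ZFAND6 was at 0.033, 0.0296 and 0.0294 and PRDM2 row 1 at 0.0225, 0.0172 and 0.0168, and quantile normalization put ZFAND6 at 0.0454. Depth limits members near 100 reads in all.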
